A study of Mus musculus with 27 samples.

Results

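Solute carriers are membrane proteins that move amino acids, sugars, nucleosides, metals, ions, vitamins and metabolites across the plasma membrane and the membranes of lysosomes, mitochondria and the Golgi. Macrophages depend on them to take up nutrients, to export what is released when engulfed material is digested in the lysosome, and to exchange metabolites between cytosol and mitochondria. Red pulp macrophages of the spleen (RPM) are best known for recycling heme iron from aged erythrocytes, whereas microglia are the resident macrophages of the brain parenchyma. The genes described here are solute carrier genes with a high array signal in at least 1 macrophage or monocyte group. They were selected on measured values: a gene entered when its symbol had the form Slc, number, a, number, when its array transcript carried that symbol alone, and when the mean log2 signal was 8 or more in at least 1 of 9 groups. The transcript with the highest mean stood for a gene with several, which concerned 5 genes. *Slc2a5*, *Slc40a1*, *Slc11a1*, *Slc1a2* and *Slc1a3* were left out by the same rule. Of 319 solute carrier genes with a transcript of 1 symbol, 99 reached this level and 95 remained, among 21666 genes measured. By the same level rule 6614 genes of any kind qualified. Because the rule used the levels, these are given as a description.

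Expression was measured on 27 Affymetrix Mouse Gene 2.1 ST arrays of cells from C57BL/6 mice that were 6 to 12 weeks old at the start. Each array was a pool of 2 to 5 mice. Naive microglia (5 arrays) were sorted as CD11b+CX3CR1hi cells from brain and are labelled as coming from completely naive mice or from tamoxifen-treated *Cx3cr1*CreER/+ controls. A legend of the study describes them as sorted from *Cx3cr1*CreER/+ mice given tamoxifen. In *Cx3cr1*CreER/+*R26*DTA/+ mice, tamoxifen switched on diphtheria toxin A in cells in which the *Cx3cr1* promoter drives Cre, and the cells that refilled the emptied brain were sorted into F4/80low and F4/80hi cells by that surface antigen. F4/80low cells, labelled as repopulated microglia, were taken at 4 weeks (3 arrays) and 12 weeks (3 arrays) after tamoxifen. F4/80hi cells, labelled as macrophages that engrafted the CNS, were taken at 4 weeks (2 arrays) and 12 weeks (3 arrays). DTR microglia (2 arrays) came from *Cx3cr1*CreER/+*R26*DTR/+ mice given tamoxifen, then diphtheria toxin 3 weeks later, and were sorted 2 weeks after the toxin. The *Cx3cr1*CreER allele, in which Cre replaces 1 copy of *Cx3cr1*, was thus carried by all depleted mice and, by that legend, by the naive group too. The reference cells from untreated mice were Ly6Chi monocytes of bone marrow isolated with a magnetic kit (5 arrays), RPM sorted as live CD45+F4/80hi spleen cells (2 arrays) and intestinal macrophages sorted as CX3CR1hiCD64+MHCII+ cells (2 arrays). The same legend counts 3 biological and 2 technical arrays among the 5 of naive microglia and among the 5 of monocytes without saying which, so p-values that use them may be too small.

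Marker lists were high on average in the groups they name, but some groups also carried markers of other cell types. The mean log2 level of 5 measured of 7 listed microglia markers was 11.67 to 11.89 in naive arrays, 10.13 to 10.44 in F4/80hi arrays at 12 weeks and 5.38 to 5.77 in monocytes. The 6 RPM markers lay at 12.44 to 12.47 in RPM, and 5 measured of 6 monocyte markers at 12.27 to 12.33 in monocytes. Of 7 listed intestinal macrophage markers, 6 were measured and averaged 9.32 to 9.36 in intestinal macrophages. *Mgl2*, *H2-Ab1* and *Il10* were highest there. *Cd209g* was low there (4.97), *Cd163* was higher in RPM (10.75 against 8.39) and *Cx3cr1* in naive microglia (12.71 against 11.01). The neutrophil markers lay at 10.05 to 10.5 in monocytes and 7.08 to 7.21 in RPM. The monocyte markers lay at 9.49 to 9.61 in intestinal macrophages. Their part in the comparisons with these groups was not tested. Among the brain arrays, those at 4 weeks stood apart in 1 respect. The 7 neutrophil markers, at 5.15 to 5.5 in naive arrays, reached 8.89 and 6.94 in the F4/80hi arrays and 8.93, 8.78 and 6.65 in the F4/80low arrays at 4 weeks, and the monocyte markers, at 5.47 to 5.95 in naive arrays, were at 7.83 and 6.28 and at 7.5, 8.16 and 6.13. Both lists were at 4.88 to 6.37 in the 12-week and DTR arrays. In cell pools such as these, fewer cells of a type and less RNA per cell cannot be told apart.

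The 95 members fell into 10 substrate classes. The largest were carriers of amino acids and peptides (18 members), mitochondrial carriers of the SLC25 family (18), carriers of metals and heme (18) and carriers of ions or acid-base equivalents (14). Carboxylates and organic ions had 9 members, sugars and sugar phosphates 7, vitamins, choline and lipids 4, nucleosides and nucleobases 3, nucleotide sugars 2, and 2 stood in no class. A common set of 35 was at 8 or above in all 9 groups, 47 in 2 to 8 groups and 13 in 1 group only. Amino acid carriers dominated the common set, with 13 of 18 members, against 6 of 18 mitochondrial carriers, 5 of 18 metal carriers and 1 of 14 ion carriers. The single ion carrier present everywhere was *Slc9a8*, a sodium-proton exchanger of the Golgi.

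RPM had the broadest set of carriers and F4/80hi cells at 12 weeks the narrowest. Of the 95 members, 73 reached the level in RPM, 67 in monocytes, 66 in intestinal macrophages, 65 in naive microglia and 63 in DTR microglia. At 4 weeks both F4/80low and F4/80hi cells had 66. At 12 weeks the former had 57 and the latter 53. For 30 members the highest group mean was in RPM, whereas F4/80hi cells at 12 weeks held the highest mean for 6. These counts rest on the group means that chose the members, without a batch term. The arrays lie in 2 batches. RPM, intestinal macrophages and the 4-week groups were in batch 2, and the 12-week and DTR groups in batch 1. In naive microglia the members' median difference of batch 2 from batch 1 was 0.102. The part of batch in the order of groups was not tested. Whether genes of other kinds follow the same order of groups was not tested. The members present in 1 group only were *Slc45a3*, *Slc4a1*, *Slc16a9*, *Slc15a2*, *Slc25a26* and *Slc14a1* in RPM, *Slc28a2*, *Slc11a2* and *Slc49a4* in intestinal macrophages, *Slc22a15* and *Slc25a13* in monocytes, and *Slc26a11* and *Slc17a9* in F4/80hi cells at 12 weeks. These 13 were chosen through the group where they are high and had to differ there, so no p is given for them in a contrast with that group. *Slc39a12* reached the level only in naive microglia and F4/80low cells at 12 weeks, and *Slc25a24* only in monocytes and RPM. Their contrasts with these groups are treated likewise. Members just inside the level were *Slc49a4* (8.01 in intestinal macrophages), *Slc17a9* (8.05 in F4/80hi cells at 12 weeks) and *Slc30a6* (8.06 in F4/80hi cells at 4 weeks). Just outside lay *Slc66a2* (7.99 in monocytes), *Slc1a5* (7.99 in monocytes) and *Slc27a1* (7.99 in F4/80hi cells at 4 weeks). A level of 7 would have given 131 members and a level of 9 would have given 65.

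The members differed widely in how much their group means varied. Between the lowest and the highest group mean lay 0.45 to 6.78 on the log2 scale, with a median of 1.74. The narrowest ranges belonged to *Slc41a3* (7.95 to 8.40), a magnesium transporter of mitochondria, *Slc31a2*, *Slc20a2*, *Slc50a1* (9.27 to 9.93) and *Slc38a9* (8.67 to 9.35), the lysosomal arginine sensor of the mTORC1 pathway. The widest belonged to *Slc45a3*, *Slc4a1*, *Slc25a24*, *Slc16a9* and *Slc12a2*. Range also differed by class: its median was 1.2 for metal carriers, 1.58 for mitochondrial carriers, 1.81 for amino acid carriers, 2.18 for ion carriers and 3.64 for the 3 nucleoside carriers. Of the 95 members, 30 passed the test in none of the 12 comparisons below, among them the taurine carrier *Slc6a6*, the lysosomal sialic acid exporter *Slc17a5*, the monocarboxylate carrier *Slc16a7*, mitoferrin 2 (*Slc25a28*) and 10 of the 18 metal carriers. The group means of these 30 spanned 0.45 to 1.51.

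**Figure D1:**
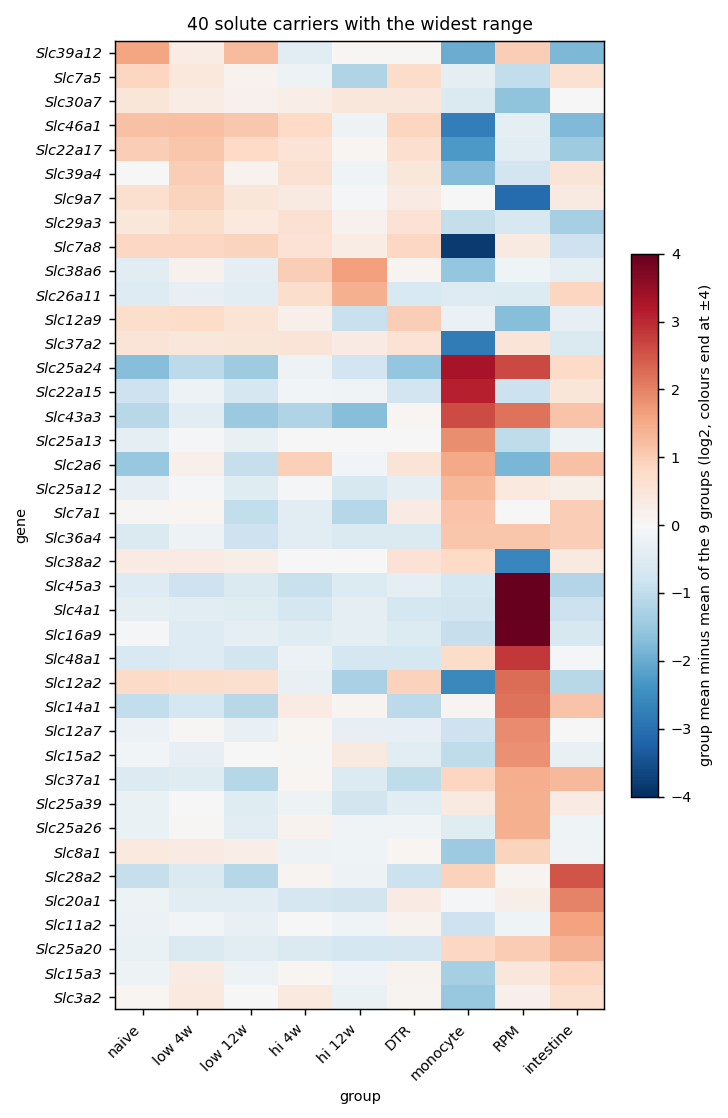
Mean log2 signal of the 40 members with the widest range in the 9 groups, shown per gene as the difference from its mean over the groups (colour, ending at 4 in either direction). Signals confined to RPM stand out for several members (*Slc45a3*, *Slc4a1*, *Slc16a9*), and the brain groups resemble one another except for members such as *Slc38a6*, *Slc2a6* and *Slc12a2*.

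The promoters of 4 members that the brain comparisons turn on are shown because the members move in opposite directions: *Slc38a6* and *Slc2a6* were higher and *Slc46a1* and *Slc12a9* lower in F4/80hi cells at 12 weeks than in naive microglia. Each runs 5′ to 3′ from 250 bases before to 50 bases after the annotated start (RefSeq, GRCm38.p6). *Slc38a6* lies at chr12:73286598-73286897 on the plus strand, *Slc2a6* at chr2:27027949-27028248 on the minus strand, *Slc46a1* at chr11:78465451-78465750 on the plus strand and *Slc12a9* at chr5:137333533-137333832 on the minus strand. Capitals mark GGGCGG, the GC box, and CACGTG, the E-box, on either strand, so that a GC box on the opposite strand reads CCGCCC.
Slc38a6: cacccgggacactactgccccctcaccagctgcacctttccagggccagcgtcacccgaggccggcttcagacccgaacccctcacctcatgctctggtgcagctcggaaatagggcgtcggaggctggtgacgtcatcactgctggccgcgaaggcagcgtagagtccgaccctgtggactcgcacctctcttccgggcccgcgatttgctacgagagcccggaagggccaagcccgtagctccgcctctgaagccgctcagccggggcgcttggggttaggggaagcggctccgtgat
Slc2a6: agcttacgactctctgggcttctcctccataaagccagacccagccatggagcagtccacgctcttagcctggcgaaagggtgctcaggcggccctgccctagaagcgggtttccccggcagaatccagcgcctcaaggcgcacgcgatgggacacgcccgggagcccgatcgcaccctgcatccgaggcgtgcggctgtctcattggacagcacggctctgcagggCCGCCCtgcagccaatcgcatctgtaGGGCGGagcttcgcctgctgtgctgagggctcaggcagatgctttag
Slc46a1: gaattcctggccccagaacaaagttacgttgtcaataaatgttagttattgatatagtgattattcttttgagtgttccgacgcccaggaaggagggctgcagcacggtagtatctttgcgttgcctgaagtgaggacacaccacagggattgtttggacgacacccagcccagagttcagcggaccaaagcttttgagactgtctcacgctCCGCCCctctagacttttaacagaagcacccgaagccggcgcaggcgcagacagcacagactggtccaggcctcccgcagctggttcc
Slc12a9: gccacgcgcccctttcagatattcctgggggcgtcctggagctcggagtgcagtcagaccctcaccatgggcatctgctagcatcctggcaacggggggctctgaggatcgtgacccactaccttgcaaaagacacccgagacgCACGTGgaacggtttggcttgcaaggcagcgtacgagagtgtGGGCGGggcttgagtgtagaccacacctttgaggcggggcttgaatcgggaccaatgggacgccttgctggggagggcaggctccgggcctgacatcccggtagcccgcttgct
The *Slc2a6* promoter held 2 GC boxes, that of *Slc46a1* held 1, that of *Slc12a9* held 1 GC box and 1 E-box, and that of *Slc38a6* held none of 4 motifs searched on both strands. Over the 86 promoters listed for 71 members, the GC box occurred in 62 (72.1%), compared with 35.7% of all 32851 promoters and 64% of those of genes at the same level. The E-box, the site of MYC and of the lysosomal regulators TFEB and TFE3, occurred in 14 (16.3%) of the members' promoters, in 7.15% of all and in 10.8% of those at the same level. The PU.1-type core GAGGAAGT occurred in 4.65% of members' promoters, 3.2% of all and 3.7% of those at the same level. For the AP-1 motif TGANTCA these shares were 8.14%, 7.81% and 5.11%. None of the 4 motifs contains another. Among the members with a promoter listed that were higher in F4/80hi cells at 12 weeks, 2 of 3 promoters held a GC box, and among those lower, 4 of 7.

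The first question the brain samples address is how far the F4/80hi cells that engrafted after depletion resembled microglia. At 12 weeks 12 members differed from naive microglia by more than 2-fold at an adjusted p under 0.05 (limma, Benjamini-Hochberg over all 32245 transcripts with signal). Higher were the amino acid carrier *Slc38a6*, the anion exchanger *Slc26a11*, the glucose carrier family member *Slc2a6*, the urea transporter *Slc14a1* and the mitochondrial dicarboxylate carrier *Slc25a10*. Lower were the sodium-potassium-chloride cotransporter *Slc12a2*, *Slc12a9* of the same family, the large neutral amino acid carrier *Slc7a5*, the arginine carrier *Slc7a1*, the zinc importer family member *Slc39a12*, the proton-coupled folate transporter *Slc46a1* and the choline carrier family member *Slc44a2*. *Slc26a11* was selected through this F4/80hi group, and *Slc39a12* through naive microglia and F4/80low cells at 12 weeks. Nothing is read from their place in the count. The 5 higher members are to be read against 1.34% of all transcripts and 4.1% of genes at the same level that were higher, and the 7 lower against 1.65% and 3.93%. Of the 49 members at the level in both groups, 1 was higher (*Slc38a6*) and 3 were lower. The median difference of the members was -0.25, beside 0.0 over all transcripts and -0.12 over genes at the same level. Without the 2-fold limit, 26 members differed at an adjusted p under 0.05 and 44 at an unadjusted one. The amino acid carrier *Slc7a8* had 12.21, 12.15 and 12.03 in F4/80hi cells and 12.45 to 12.82 in naive microglia, with no overlap but a difference under 2-fold.

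*Slc38a6*, a member of the family of sodium-coupled neutral amino acid transporters, had log2 signals of 10.17, 10.41 and 10.08 in F4/80hi cells at 12 weeks. In naive microglia it had 8.25, 7.91, 8.0, 8.08 and 8.45. Every F4/80hi array lay above every naive array, and the difference was 2.14 ± 0.19 (SE; 4.41-fold, adjusted p = 2.3e-08). F4/80low cells sorted from the same kind of mice at 12 weeks had 8.34, 8.32 and 7.92, and the difference of F4/80hi from F4/80low cells was 2.02 ± 0.19 (adjusted p = 6.56e-08). Already at 4 weeks the 2 F4/80hi arrays, 9.65 and 9.44, lay above all naive arrays (1.37 ± 0.20, adjusted p = 6.5e-05). The 3 F4/80low arrays at 4 weeks were spread, at 9.03, 8.99 and 8.24, and their difference from the F4/80hi arrays of that time, 0.79, had an adjusted p of 0.105. *Slc38a6* was also higher in F4/80hi cells at 12 weeks than in RPM (8.49 and 8.34; difference 1.90, adjusted p = 4.72e-06), intestinal macrophages (8.23 and 8.13; 2.14, adjusted p = 1.11e-06) and monocytes (6.95 to 7.23; 3.23, adjusted p = 3.32e-13). The comparisons of F4/80hi cells with RPM and with intestinal macrophages were chosen after the values had been seen.

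*Slc26a11*, which exchanges sulfate and other anions, had nearly equal signals of 8.31, 8.34 and 8.34 in F4/80hi cells at 12 weeks, the group that selected it, with 5.99 to 6.59 in naive microglia and 6.13 to 6.72 in F4/80low cells at 12 weeks. Besides F4/80hi cells, only intestinal macrophages (8.04 and 7.50) had arrays above 7. At 4 weeks F4/80hi cells had 7.08 and 8.14, both above the naive arrays, with a difference of 1.10 ± 0.24 (adjusted p = 0.00634). That call rested on the second array: without it the difference was 0.57 (adjusted p = 0.4). The same array carried the 4-week values of *Slc25a10*, at 7.72 and 9.03, and *Slc14a1*, at 6.24 and 7.63. Without it these differences fell from 1.10 to 0.44 and from 1.33 to 0.64, and neither passed.

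*Slc14a1*, the urea transporter of erythrocytes and kidney, had 6.56, 6.87 and 6.76 in F4/80hi cells at 12 weeks, above the 5.31 to 5.83 of naive microglia (1.08 ± 0.23, adjusted p = 0.00332) and the 5.54, 5.57 and 5.39 of F4/80low cells (1.23, adjusted p = 0.000915). These signals stayed under the level of 8, which the gene reached in RPM alone (8.72 and 8.83). *Slc25a10* had 8.03, 8.21 and 8.35 at 12 weeks and 7.04 to 7.63 in naive microglia. Its difference from naive microglia, 1.00 ± 0.25 (adjusted p = 0.011), lay at the edge of 2-fold and fell short of it under 7 of 16 alternatives. Against F4/80low cells it was 1.11 (adjusted p = 0.0046).

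The carriers lower in F4/80hi cells included both microglia-enriched and widely used ones. *Slc12a2* (NKCC1), which loads cells with chloride, had 6.25, 6.43 and 6.27 in F4/80hi cells at 12 weeks and 8.50, 8.29, 8.17, 8.54 and 8.43 in naive microglia. The difference was -2.08 ± 0.22 (4.22-fold, adjusted p = 3.56e-07), and that from F4/80low cells, which had 8.33, 7.91 and 8.50, was -1.93 (adjusted p = 1.08e-06). At 4 weeks F4/80hi cells stood between, at 7.53 and 7.10 (-1.07 from naive microglia, adjusted p = 0.00531; not passing without the second array). Monocytes had the lowest signals of this gene, 4.88 to 5.14, so the F4/80hi cells lay above monocytes and below microglia.

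*Slc7a5* (LAT1), which pairs with *Slc3a2* to import large neutral amino acids, had 7.75, 7.85 and 7.44 in F4/80hi cells at 12 weeks and 9.59, 9.67, 10.01, 9.83 and 9.63 in naive microglia. No arrays overlapped, and the difference was -1.95 ± 0.22 (adjusted p = 8.61e-07). It was -1.34 from F4/80low cells at 12 weeks (9.02, 8.77 and 9.28; adjusted p = 0.000155). F4/80hi cells at 4 weeks had 8.71 and 8.66 (-1.14, adjusted p = 0.00272). Its partner *Slc3a2* did not pass in any of the brain comparisons: it had 10.50, 10.29 and 10.78 in F4/80hi cells at 12 weeks and 10.52 to 11.28 in naive microglia. *Slc7a1* (CAT1), the arginine importer, differed by -1.12 ± 0.29 (adjusted p = 0.0174), with 6.58, 6.83 and 7.21 against 7.24 to 8.99. This call was lost under 5 of 16 alternatives, and F4/80low cells at 12 weeks had equally low signals of 7.16, 6.79 and 7.09.

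*Slc46a1*, the proton-coupled folate transporter, had 8.68, 8.69 and 8.98 in F4/80hi cells at 12 weeks and 10.04 to 10.30 in naive microglia (-1.33 ± 0.21, adjusted p = 0.000109). F4/80hi cells at 4 weeks, at 9.67 and 9.95, lay just below the naive arrays and did not pass. *Slc12a9* had 8.95, 8.14 and 9.09 against 10.19 to 10.48 (-1.53 ± 0.19, adjusted p = 3.92e-06), and *Slc44a2*, which carries choline, 9.45, 9.33 and 9.58 against 10.73 to 11.38 (-1.35 ± 0.18, adjusted p = 1.75e-05). Both had 4-week F4/80hi arrays close to the naive ones, at 9.79 and 9.83 for *Slc12a9* and 10.55 and 10.89 for *Slc44a2*. *Slc39a12* had 7.30, 7.40 and 6.38 against 8.37, 8.82, 8.23, 8.76 and 8.56 (-1.57 ± 0.30), and naive microglia were among the groups that selected it. The microglia markers *P2ry12*, *Siglech*, *Tmem119* and *Sall1* averaged lower in the same F4/80hi arrays, *Sall1* most (6.70 against 11.41). *Fcrls* did not (11.81 against 11.78). The part of what lowered these markers in these results was not tested.

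**Figure D2:**
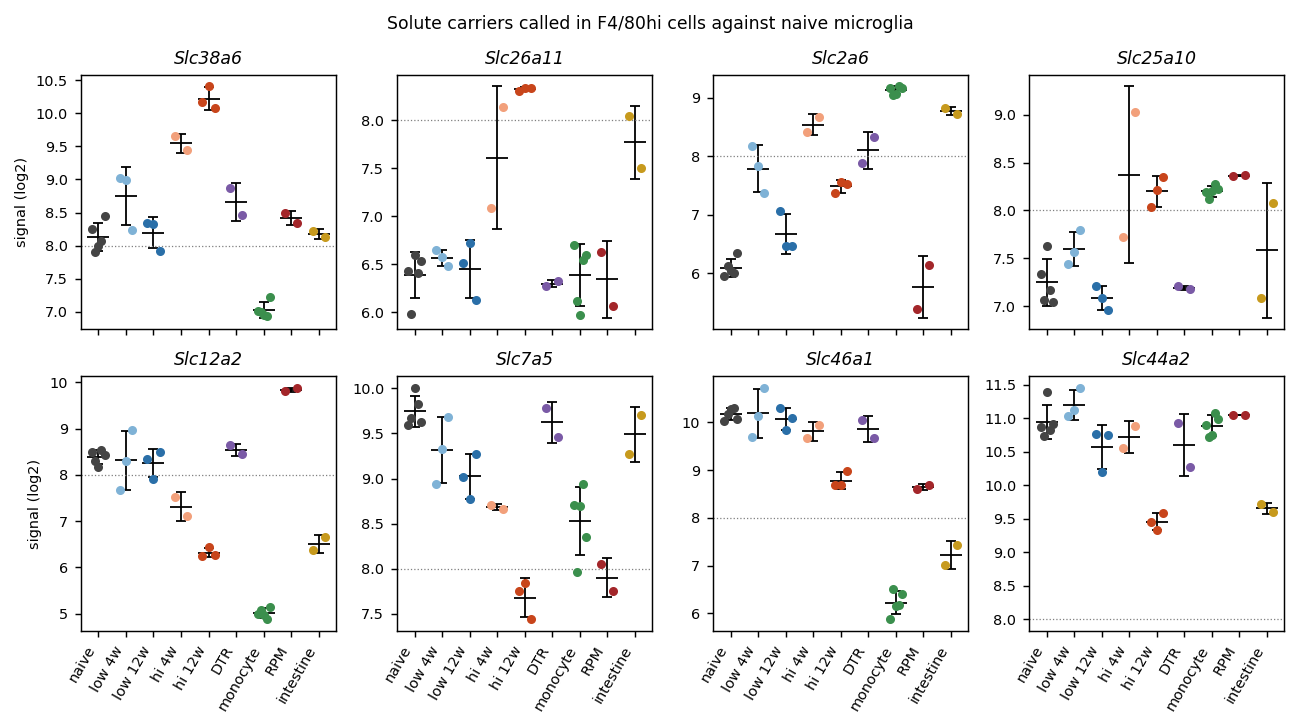
Log2 signal of 8 members on every array (dots) in the 9 groups, with the group mean and SD (bars) and the level of 8 (dotted line). *Slc38a6* and *Slc26a11* are highest in F4/80hi cells at 12 weeks, *Slc12a2*, *Slc7a5*, *Slc46a1* and *Slc44a2* are lower there than in naive microglia, and *Slc2a6* is above naive microglia in F4/80hi, 4-week F4/80low and DTR cells.

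Within the same mice at 12 weeks, 10 members separated F4/80hi from F4/80low cells, 4 higher and 6 lower, beside 1.23% and 1.28% of all transcripts and 3.79% and 3.34% of genes at the same level. The higher members were *Slc38a6*, *Slc14a1*, *Slc25a10* and *Slc26a11*, the last of which the F4/80hi group had selected, so that nothing is read from it. The lower members were *Slc12a2*, *Slc12a9* (-1.45, adjusted p = 8.47e-06), *Slc7a5*, *Slc46a1* (-1.30, adjusted p = 0.000146), *Slc44a2* (-1.12, adjusted p = 0.000193) and *Slc39a12* (-1.20). The last was selected through naive microglia and these F4/80low cells, so nothing is read from it. Its call was lost without the third F4/80hi array (-0.88) or the first F4/80low array (-1.11). Of the 47 members at the level in both groups, 1 was higher and 3 were lower. This comparison and that with naive microglia share the F4/80hi arrays. The main fit did not pair F4/80hi with F4/80low arrays, although the paper states that both were sorted from the same brains. The members' median was -0.16, beside 0.02 over all transcripts and -0.04 over genes at the same level.

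**Figure D3:**
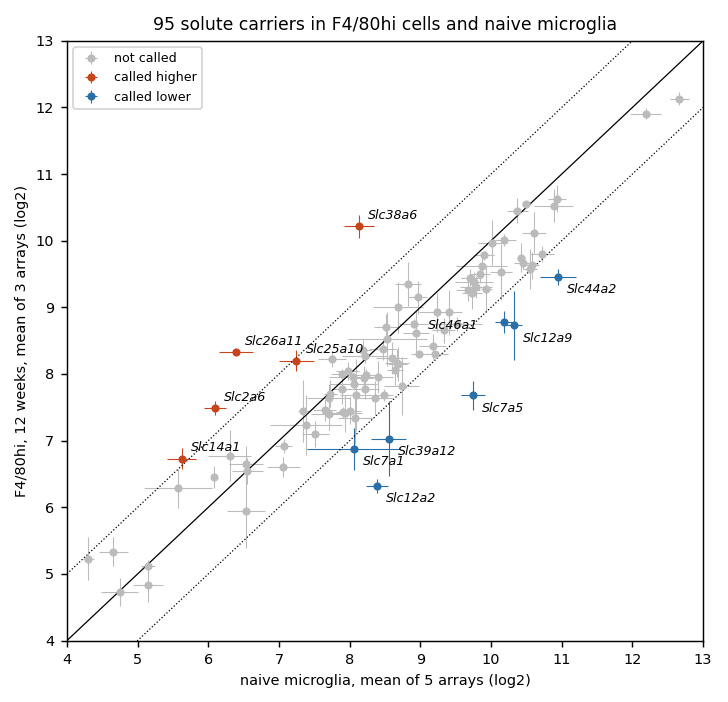
Mean log2 signal of the 95 members in naive microglia (horizontal, 5 arrays) and in F4/80hi cells at 12 weeks (vertical, 3 arrays), with SD bars, the line of equality and the lines of a 2-fold difference. Most members lie between the 2-fold lines, with *Slc38a6* (10.22 against 8.13) above and *Slc12a2* (6.32 against 8.39) and *Slc7a5* (7.68 against 9.74) below.

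At 4 weeks, 9 members differed between F4/80hi cells and naive microglia, 6 higher and 3 lower, beside 1.53% and 1.01% of all transcripts and 4.66% and 1.48% of genes at the same level. Besides *Slc38a6*, *Slc26a11*, *Slc14a1* and *Slc25a10*, *Slc2a6* and *Slc25a24* were higher. *Slc2a6*, a glucose carrier family member of lysosomes, had 8.41 and 8.66 in F4/80hi cells at 4 weeks against 5.95, 6.12, 6.04, 6.00 and 6.35 in naive microglia, a difference of 2.40 ± 0.22 (5.29-fold, adjusted p = 7.58e-08). *Slc25a24*, which exchanges ATP-magnesium for phosphate across the inner mitochondrial membrane, had 5.92 and 5.68 against 4.19 to 4.38 (1.51 ± 0.26, adjusted p = 0.00042), with 9.06 to 9.50 in monocytes. Lower were *Slc39a12*, at 6.70 and 6.39 (-1.98), *Slc7a5* and *Slc12a2*. Naive microglia were among the groups that selected *Slc39a12*, so nothing is read from its place in this count. Without the second F4/80hi array 6 members passed. Of the 58 members at the level in both groups, 1 was higher and 1 lower, and the median was -0.03, equal to that of all transcripts.

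The values of *Slc2a6* in the other repopulated groups are set side by side here, since these comparisons share the naive arrays. In F4/80low cells it had 8.18, 7.82 and 7.36 at 4 weeks (1.66 ± 0.19 from naive microglia, adjusted p = 1.15e-05) and 7.07, 6.47 and 6.47 at 12 weeks, where it did not pass. In DTR microglia it had 7.88 and 8.32 (2.07 ± 0.23, adjusted p = 7.57e-06), and in F4/80hi cells at 12 weeks 7.36, 7.57 and 7.52 (1.45 ± 0.21, adjusted p = 2.64e-05). All these arrays, those of F4/80low cells at 12 weeks included, lay above the highest naive array. The difference between 12 and 4 weeks was -1.02 in F4/80low cells (adjusted p = 0.111) and -0.95 in F4/80hi cells, and neither passed. Monocytes (9.04 to 9.20) and intestinal macrophages (8.82 and 8.73) had higher signals than every brain array. The neutrophil and monocyte markers were raised in the 4-week arrays, and their part in the 4-week values of *Slc2a6*, *Slc25a24*, *Slc38a6*, *Slc39a12* and the other members was not tested. Among the F4/80low arrays at 4 weeks, the third had the lowest neutrophil markers (6.65, against 8.93 and 8.78), the lowest *Slc2a6* and *Slc38a6* and the highest *Slc39a12*. Of the F4/80hi arrays at 4 weeks, the second had the lower neutrophil markers (6.94 against 8.89). It also had the lower *Slc38a6*, but *Slc2a6* and *Slc39a12* went the other way, with *Slc2a6* higher and *Slc39a12* lower. In DTR microglia and in F4/80hi cells at 12 weeks the neutrophil markers were at 4.88 to 5.68, as in naive microglia (5.15 to 5.5).

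Between 4 and 12 weeks no member passed the test in F4/80hi cells, beside 0.0124% of all transcripts higher and 0.158% lower, and 0% and 0.529% of genes at the same level. At an unadjusted p under 0.05, 20 members differed. The 4-week and 12-week groups lie in different array batches, so this contrast rests on the batch term that naive microglia and monocytes provide. Without that term 6 members were lower at 12 weeks: *Slc12a9*, *Slc2a6*, *Slc31a1*, *Slc44a2*, *Slc46a1* and *Slc7a5*. The batch differences of naive microglia and of monocytes were equal within 0.000133 in every transcript, a trace of a batch adjustment before deposit. Naive microglia and monocytes thus give no independent estimates of the batch effect. For this reason the contrast cannot decide whether members changed between 4 and 12 weeks. The median of the members was -0.21, beside 0.01 over all transcripts and -0.16 over genes at the same level.

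F4/80low cells differed little from naive microglia in their carriers. At 4 weeks 2 members passed, *Slc2a6* higher and *Slc39a12* lower, beside 0.735% and 0.267% of all transcripts and 2.62% and 0.287% of genes at the same level. For *Slc39a12* the arrays had 6.28, 7.55 and 8.0 (-1.24 ± 0.28). Naive microglia were among the groups that selected it, so nothing is read from its direction against them. The call of *Slc39a12* was lost under 6 alternatives, among them leaving out the first F4/80low array, the fourth or the fifth naive array. At 12 weeks no member passed (limma), and 4 did at an unadjusted p under 0.05, beside 0.0527% and 0.062% of all transcripts and 0.136% and 0% of genes at the same level. *Slc39a12* had then 8.40, 8.21 and 8.07, and its change of 0.87 between 4 and 12 weeks did not pass. In DTR microglia 3 members passed, beside 0.633% and 0.121% of all transcripts and 2.15% and 0.136% of genes at the same level. These were *Slc2a6*, the nucleobase carrier *Slc43a3* and *Slc39a12*. *Slc43a3* was higher, at 7.72 and 7.72 against 6.19 to 6.81 (1.22 ± 0.28, adjusted p = 0.0267). *Slc39a12*, for which the same limit of selection holds, was lower at 7.28 and 6.79 (-1.56 ± 0.34). The calls of *Slc43a3* and *Slc39a12* did not survive leaving out either DTR array. The medians of the members were 0.04 in the first of these comparisons, -0.11 in the second and -0.01 for DTR microglia.

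Naive microglia and Ly6Chi monocytes, the circulating cells that can give rise to tissue macrophages, differed in 35 members, 19 higher and 16 lower in microglia, beside 5.48% and 9.15% of all transcripts and 12.6% and 25.2% of genes at the same level. After quantile normalization the split was 25 higher and 10 lower. Of the 51 members at the level in both, 10 were higher and 3 lower, and the median of the 95 was 0.21, beside -0.33 over genes at the same level. Of 18 amino acid carriers 7 were higher in microglia, 2 were lower and 9 did not pass. Of 18 mitochondrial carriers 0 were higher and 7 were lower. The 16 lower members include *Slc22a15* and *Slc25a13*, which monocytes alone carried at the level, so nothing is read from their direction.

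*Slc7a8* (LAT2) had the largest difference among the members higher in microglia, with 12.69, 12.82, 12.65, 12.69 and 12.45 in naive microglia and 8.19, 8.14, 7.89, 7.86 and 7.97 in monocytes. The difference of 4.69 ± 0.10 was 25.7-fold (adjusted p = 7.34e-21). The carrier was high in every tissue macrophage group, at 12.20 and 12.20 in RPM and 10.95 and 11.07 in intestinal macrophages, and the related *Slc7a7* (y+LAT1) was higher in microglia by 1.38 (adjusted p = 8.7e-09). *Slc3a2*, the shared heavy chain of *Slc7a5*, *Slc7a7* and *Slc7a8*, was higher by 1.60 (adjusted p = 3.66e-09). Other carriers that tissue macrophages shared were the sugar phosphate carrier *Slc37a2*, at 10.05 to 10.46 in microglia and 6.49 to 7.33 in monocytes (3.35, adjusted p = 5.93e-16), and the sodium-calcium exchanger *Slc8a1* (1.81, adjusted p = 2.2e-11). RPM had *Slc37a2* at 10.18 and 10.18, and intestinal macrophages at 8.89 and 9.29.

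*Slc46a1* and *Slc22a17* set microglia apart from all 3 reference groups. *Slc46a1* was higher than in monocytes by 3.93 ± 0.16 (5.87 to 6.50 there; adjusted p = 7.15e-16), than in RPM by 1.58 (8.61 and 8.69; adjusted p = 4.11e-06) and than in intestinal macrophages by 3.00 (7.02 and 7.43; adjusted p = 1.14e-10). *Slc22a17*, known as a receptor for the iron-binding protein lipocalin 2, had 9.35, 8.95, 9.20, 9.13 and 9.39 in microglia, 5.80 to 6.07 in monocytes, 7.73 and 7.83 in RPM and 6.52 and 7.12 in intestinal macrophages. The differences were 3.25 ± 0.14, 1.46 ± 0.19 and 2.42 ± 0.19 (adjusted p = 1.04e-15, 9.92e-07 and 2.47e-10). The lysosomal nucleoside carrier *Slc29a3* did the same at a high level, with 11.89 to 12.46 in microglia and differences of 1.41, 1.11 and 1.79 (adjusted p = 4.64e-10, 6.35e-06 and 3.66e-09). *Slc16a6*, a member of the monocarboxylate carrier family, was higher by 1.77, 1.69 and 1.10. F4/80hi cells at 12 weeks had *Slc22a17* at 8.33, 8.31 and 8.24, below naive microglia and above monocytes. The 3 comparisons share the naive arrays.

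Higher in monocytes were carriers of nucleobases and of mitochondria. *Slc43a3* had 10.28, 10.14, 10.26, 10.32 and 10.26 in monocytes and 6.19, 6.81, 6.77, 6.57 and 6.34 in naive microglia (-3.73 ± 0.20, adjusted p = 5.8e-14). *Slc25a24* had 9.26, 9.16, 9.50, 9.46 and 9.06 against 4.33, 4.33, 4.38, 4.29 and 4.19, which is 31.5-fold (-4.98 ± 0.19). It was selected through monocytes and RPM alone, so nothing is read from its direction. *Slc2a6* followed, at -3.05 ± 0.16 (adjusted p = 6.45e-14). *Slc22a15* and *Slc25a13*, which only monocytes carried at the level, had 8.30 to 8.76 and 8.05 to 8.58 in monocytes and 4.35 to 4.94 and 6.02 to 6.11 in naive microglia.

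Naive microglia and RPM differed in 36 members, 12 higher and 24 lower in microglia, beside 7.24% and 8.51% of all transcripts and 13.1% and 23.6% of genes at the same level. The 24 include all 6 members that RPM alone carried at the level, and nothing is read from the direction of these 6. Of the 55 members at the level in both, 4 were higher and 8 lower, and the median of the members was -0.07, beside -0.3 over genes at the same level. Of 18 mitochondrial carriers 9 were lower and 0 higher in microglia, whereas 3 of 18 amino acid carriers were higher and 3 lower, 3 of 14 ion carriers were higher and 3 lower, and 1 of 18 metal and heme carriers was higher and 2 were lower.

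*Slc48a1* (HRG1), which moves heme out of the phagolysosome, had 11.27 and 11.03 in RPM and 7.19, 7.83, 7.98, 7.84 and 7.67 in naive microglia. RPM were higher by 3.32 on the log2 scale, 9.97-fold (SE 0.23, adjusted p = 3.83e-11). Against intestinal macrophages, at 7.91 and 8.52, the difference was 2.94 (adjusted p = 6.43e-09), and against monocytes, at 8.75 to 9.23, it was 1.93 (adjusted p = 1.07e-06). F4/80hi cells at 12 weeks had 7.41, 7.81 and 7.71, within the naive range.

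*Slc45a3* had the widest range of all members, with 10.83 and 10.93 in RPM and no array above 5.09 in any other group. *Slc16a9*, of the monocarboxylate carrier family, had 9.21 and 9.11 in RPM and 4.03 to 5.34 elsewhere. *Slc4a1*, the band 3 anion exchanger of erythrocytes, had 10.70 and 9.60 in RPM and 4.46 to 5.45 elsewhere, and of these genes it alone differed clearly between the 2 RPM arrays. Of 5 erythroid genes chosen after these values were seen (*Epb42*, *Ermap*, *Rhag*, *Klf1* and *Gata1*), the mean was 7.85 and 6.92 in the same 2 arrays and 4.92 to 5.12 in the brain groups. *Epb42*, which encodes a membrane protein that binds band 3, averaged 8.02 in RPM and 4.26 to 4.80 elsewhere. The part of erythroid cells or engulfed erythroid RNA in the RPM values of *Slc4a1*, *Slc14a1*, *Slc45a3* and *Slc16a9* was not tested.

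Other carriers had lower signals in RPM than in the other groups. *Slc38a2* (SNAT2), an importer of small neutral amino acids, had 6.95 and 6.86 in RPM and 9.40 to 10.36 in all other arrays, and naive microglia were higher by 2.93 ± 0.16 (adjusted p = 7.51e-13). *Slc9a7*, a sodium-proton exchanger of the Golgi and endosomes, had 5.54 and 4.99 in RPM and 8.19 to 9.89 elsewhere (3.76 ± 0.25 higher in microglia, adjusted p = 1.22e-11). Both genes separated RPM from each of the other 8 groups with no overlap of arrays. The zinc exporter of the Golgi *Slc30a7*, at 7.70 and 8.16 in RPM and 9.75 to 10.23 in microglia, followed (2.11, adjusted p = 1.05e-08). *Slc12a9* (2.44, adjusted p = 7.46e-10), *Slc7a5* (1.92, adjusted p = 4.07e-07) and the lysosomal amino acid exporter *Slc36a1* (1.70, adjusted p = 7.2e-09) were also higher in microglia. Within 1 family the direction could turn: of the potassium-chloride cotransporters, *Slc12a7* was lower in microglia than in RPM by 2.03 on the log2 scale (adjusted p = 2.42e-07) and *Slc12a4* was higher by 1.64 (adjusted p = 0.000666).

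**Figure D4:**
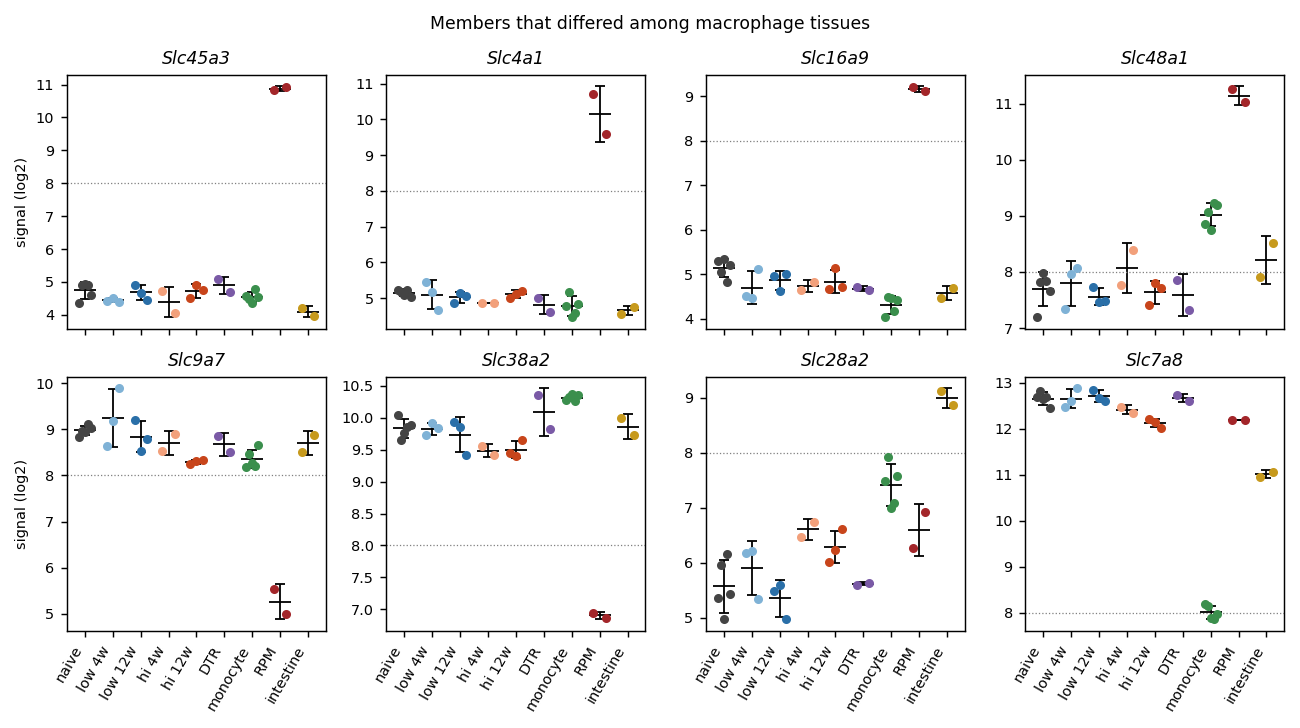
Log2 signal of 8 members on every array (dots) in the 9 groups, with the group mean and SD (bars) and the level of 8 (dotted line). *Slc45a3*, *Slc4a1* and *Slc16a9* are high in RPM alone, *Slc48a1* is highest in RPM, *Slc9a7* and *Slc38a2* are low in RPM alone, *Slc28a2* is highest in intestinal macrophages, and *Slc7a8* is low in monocytes.

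Naive microglia and intestinal macrophages differed in 28 members, 14 higher and 14 lower in microglia, beside 5.95% and 7.09% of all transcripts and 11.4% and 17.6% of genes at the same level. Of the 52 members at the level in both, 9 were higher and 2 lower, and the median was 0.22, beside -0.08 over genes at the same level. Higher in intestinal macrophages were the phosphate importer *Slc20a1*, at 10.41 and 9.82 against 7.58 to 8.20 (-2.15 ± 0.23, adjusted p = 7.69e-08), and *Slc2a6* (-2.64, adjusted p = 7.66e-10). *Slc28a2*, a sodium-coupled nucleoside importer, had 9.12 and 8.87 in intestinal macrophages and 4.97 to 6.16 in naive microglia. *Slc11a2* (DMT1), the carrier of ferrous iron, had 9.65 and 8.69 in intestinal macrophages and 6.63 to 7.94 elsewhere. Both were carried at the level by intestinal macrophages alone, so nothing is read from their direction in this comparison. The 5 genes of intestinal epithelium, a tissue that uses *Slc11a2*, averaged 5.55 and 5.69 in the intestinal arrays and 4.51 to 5.11 elsewhere, and 3 measured of 5 B and plasma cell genes 9.83 and 10.2 there. Their part in these values was not tested. Besides *Slc46a1* and *Slc22a17*, *Slc39a12* (3.34 ± 0.32), *Slc12a2* (1.87, adjusted p = 7.4e-07) and *Slc36a1* (1.70, adjusted p = 7.7e-09) were higher in microglia. Naive microglia were among the groups that selected *Slc39a12*, so nothing is read from its direction.

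RPM and intestinal macrophages differed in 38 members, 23 higher and 15 lower in RPM, beside 5.19% and 5.7% of all transcripts and 12.3% and 11.1% of genes at the same level. Of the 54 members at the level in both, 11 were higher in RPM and 1 was lower. The 38 include members that RPM alone or intestinal macrophages alone carried at the level, and nothing is read from their direction. The median of the members was 0.36, beside 0.19 over genes at the same level. *Slc12a2*, at 9.80 and 9.87 in RPM and 6.37 and 6.65 in intestinal macrophages, differed by 3.33 ± 0.27 (10-fold, adjusted p = 7.44e-10). *Slc12a7* (1.89, adjusted p = 9.55e-06), *Slc39a12* (2.77, adjusted p = 3.22e-06) and *Slc25a24* (1.86) were higher in RPM as well. RPM and monocytes alone had selected *Slc25a24*, so nothing is read from its direction. *Slc9a7* (-3.43, adjusted p = 1.25e-09), *Slc2a6* (-3.00, adjusted p = 1.43e-09), *Slc38a2* (-2.96, adjusted p = 1.21e-11) and the mitochondrial phosphate carrier *Slc25a3* (-1.62, adjusted p = 4.78e-08) were lower. Each of these groups had 2 arrays, so the spread was borrowed from the others.

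F4/80hi cells at 12 weeks and monocytes, the cell type from which engrafting macrophages may derive, differed in 41 members, 20 higher and 21 lower, beside 4.64% and 9.61% of all transcripts and 11.2% and 27.8% of genes at the same level. After quantile normalization the split was 25 and 12, and centring each array on its median moved the median of all transcripts in this comparison by -0.101. Of the 43 members at the level in both, 7 were higher and 5 lower. The 41 include members that F4/80hi cells at 12 weeks alone or monocytes alone carried at the level. Nothing is read from their direction. *Slc7a8* (4.06 ± 0.12, adjusted p = 6.44e-18), *Slc37a2* (3.02, adjusted p = 3.01e-13), *Slc46a1* (2.61, adjusted p = 1.1e-10), *Slc22a17* (2.40, adjusted p = 2.27e-11) and *Slc39a12* (2.02, adjusted p = 3.45e-06) were higher than in monocytes. *Slc43a3* (-4.29 ± 0.23, adjusted p = 2.71e-13) and *Slc25a24* (-4.08) were lower. Monocytes and RPM alone had selected *Slc25a24*, so nothing is read from its direction. The copper importer *Slc31a1* had 7.73, 8.30 and 7.45 in F4/80hi cells and 9.49 to 9.73 in monocytes (-1.74, adjusted p = 7.17e-07). The members' median was -0.07, beside -0.42 over genes at the same level.

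Mitochondrial carriers that passed were lower in microglia than in monocytes and RPM without exception. The counts below include *Slc25a13*, which reached the level in monocytes alone, and *Slc25a26*, which did so in RPM alone. They also include *Slc25a24*, which did so in monocytes and RPM only. Nothing is read from the direction of these carriers against those groups. In naive microglia 7 of 18 were lower and 0 higher than in monocytes (median -0.77), and 9 were lower and 0 higher than in RPM (median -0.91). Against intestinal macrophages 3 were lower and 1 was higher (median -0.3). F4/80hi cells at 12 weeks had 9 lower and 0 higher than monocytes (median -1.03), but 0 lower and 1 higher (*Slc25a10*) than naive microglia. *Slc25a5*, which exchanges ADP for ATP, had 11.19 to 11.50 in monocytes, 11.22 and 11.22 in RPM and 10.00 to 10.36 in naive microglia (-1.25 and -1.0, adjusted p = 1.33e-07 and 0.000274). *Slc25a20*, which brings acylcarnitines in for fatty acid oxidation, had 7.35 to 7.72 in naive microglia, 8.54 to 8.70 in monocytes, 8.82 and 8.81 in RPM and 9.14 and 9.19 in intestinal macrophages. It was lower in microglia by 1.09, 1.31 and 1.66 on the log2 scale (adjusted p = 1.09e-08, 1.53e-07 and 3.05e-09). The aspartate-glutamate carrier *Slc25a12* was lower than in monocytes by 1.70 (adjusted p = 4.35e-11). The glutathione carrier *Slc25a39* was lower than in RPM by 1.66 (adjusted p = 2.1e-07), and the dicarboxylate carrier *Slc25a10* by 1.08 (adjusted p = 0.0021). Carriers that passed in none of the 12 comparisons were the citrate carrier *Slc25a1*, the oxoglutarate carrier *Slc25a11*, the glutamate carrier *Slc25a22*, the peroxisomal carrier *Slc25a17* and mitoferrin 2. The class was not tested as a set. For naive microglia against monocytes, RPM and intestinal macrophages, the lower share of all genes at the same level was 25.2%, 23.6% and 17.6%. For F4/80hi cells at 12 weeks against monocytes it was 27.8%.

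**Figure D5:**
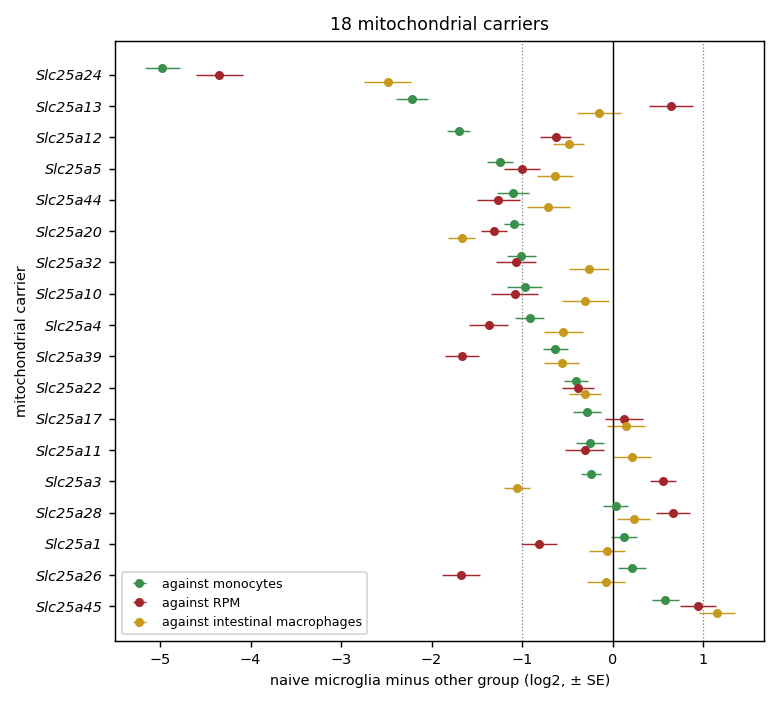
Difference of naive microglia from monocytes, RPM and intestinal macrophages in the log2 signal of the 18 mitochondrial carriers, with the SE of the model. *Slc25a24* has the largest difference from monocytes (-4.98) and from RPM (-4.35), and most carriers lie below 0 against both.

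Lysosomal carriers of amino acids and peptides showed no common direction. *Slc15a3*, which exports histidine and peptides, had 11.59 and 11.30 in intestinal macrophages, 11.04 and 11.02 in RPM, 10.20 to 10.58 in naive microglia and 9.09 to 9.37 in monocytes. Its differences of microglia from monocytes and intestinal macrophages were 1.08 (adjusted p = 2.21e-07) and -1.03 (adjusted p = 6.89e-05). Its relative *Slc15a4* passed in no comparison. The amino acid carrier *Slc36a4* was lower in microglia than in each of the 3 reference groups, by 1.68, 1.69 and 1.58 on the log2 scale, whereas *Slc36a1* of the same family was higher than in RPM and in intestinal macrophages. The 5 naive arrays of *Slc36a4* were spread, at 8.66, 8.43, 7.62, 9.05 and 8.89, against 10.03 to 10.40 in monocytes, 10.24 and 10.18 in RPM and 10.04 and 10.16 in intestinal macrophages.

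Genes that work with these carriers were taken from a list of 27 partners, of which 24 were measured: subunits and chaperones, organic anion transporters of the Slco family, and regulators of amino acid, metal and lysosomal transport. In F4/80hi cells at 12 weeks 1 of 24 passed against naive microglia, the organic anion transporter *Slco4a1*, whose mean was 7.53 ± 0.35 (SD, n = 3) against 9.85 ± 0.05 (n = 5). The difference was -2.35 (adjusted p = 1.06e-08), that from F4/80low cells at 12 weeks -2.51 (adjusted p = 6.11e-09) and that from F4/80hi cells at 4 weeks, which averaged 9.26 ± 0.30 (n = 2), -1.78 (adjusted p = 0.0021). The last contrast crosses the array batches, so it cannot decide whether *Slco4a1* changed between 4 and 12 weeks. *Slco2b1* averaged 10.1 ± 0.79 in naive microglia and 4.91 ± 0.28 in monocytes (5.09 ± 0.28, adjusted p = 1.14e-13). Embigin (*Emb*), a chaperone of monocarboxylate carriers, averaged 12.4 ± 0.15 in monocytes, 11.2 ± 0.04 in intestinal macrophages and 5.21 ± 0.20 in naive microglia. Compared with naive microglia it was higher at 4 weeks, by 1.45 in F4/80hi cells (adjusted p = 0.0285) and by 1.47 in F4/80low cells (adjusted p = 0.021), the arrays with raised monocyte markers. Against monocytes 5 partners were higher and 1 lower in naive microglia, against RPM 2 and 1, and against intestinal macrophages 2 and 7. The 7 included the sodium pump subunit *Atp1b1* (-4.33), the metallothionein *Mt2* (-3.03), *Chac1* (-2.57) and asparagine synthetase *Asns* (-2.32). No partner passed in F4/80low cells at 12 weeks or in DTR microglia.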

How the data were processed

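RNA was amplified with the WT Pico kit and hybridised to Affymetrix Mouse Gene 2.1 ST microarrays. The deposited log2 values had been processed by the authors in Partek. The version, normalization and batch correction are not given in the sources used here. Between the 2 batches, the differences of naive microglia and of monocytes were equal within 0.000133 in every transcript, a trace of a batch adjustment before deposit. Array medians were 5.06 to 5.23. Depth does not apply to arrays, whose number limits the precision. Of 41345 transcripts, 2145 were blank and 6955 were 0 in every array, which left 32245. Symbols came from the platform annotation.

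Group means and batch were fitted together over all 27 arrays by limma 3.58.1 under R 4.3.3, with 17 residual and 6.23 prior degrees of freedom. Because the values carry a trace of an earlier batch adjustment, the batch term may adjust them again and understate the spread. A call needed an adjusted p under 0.05 (Benjamini-Hochberg) and over 2-fold. Differences are those of the model and can depart slightly from those of the means. The model without its batch term was tested on simulated data with independent noise on each array. That test did not cover the batch term, technical repeats or the effect of an earlier batch adjustment on the spread.

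Named genes follow a rule: per comparison up to 10 highest and 10 lowest called members whose arrays do not overlap, the 30 members of widest range, up to 5 per class, those nearest the level, and the partners. The members, classes, partners, comparisons and this rule were chosen with earlier results of these data known, and 6 comparisons, the erythroid genes and the 4 promoters were chosen after the values were seen. Alternatives were quantile normalization, centring, no batch term, a filter on the lowest 40% of transcripts, a variance trend, only the groups compared, 1 batch only, a replicate block and each array left out.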

Additional observations from a re-analysis of the deposited data

Results flagged for a closer look

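In 190 groups of 5 arrays (95 members in naive microglia and in monocytes), 11 values (5.79%) lay apart from the other 4 arrays by more than 0.71 of the group's range. Chance alone flags about 1 in 20 such groups. In naive microglia the third array was the highest for *Slc25a11* (10.67, next 10.41), *Slc25a22* (8.65, next 7.95), *Slc39a4* (8.28, next 7.26) and *Slc44a2* (11.38, next 10.92), and the fifth for *Slc10a7* (9.73, next 9.38), *Slc17a9* (8.26, next 7.92) and *Slc37a3* (8.56, next 8.19). The first naive array was the lowest for the Golgi sodium-proton exchanger *Slc9a8* (9.65, next 9.92). In monocytes the first array was the lowest for the peptide carrier *Slc15a2* (4.93, next 5.41), the third the lowest for the lysosomal peptide carrier *Slc15a4* (10.0, next 10.17) and the fifth the highest for *Slc38a6* (7.23, next 7.01). Of the members lower in F4/80hi cells at 12 weeks, this concerned *Slc44a2*, whose other 4 naive arrays (10.73 to 10.92) also lay above all 3 F4/80hi arrays (9.33 to 9.58).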

How the results depend on the processing

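Over 47 named member comparisons and their alternatives, 612 of 667 values kept direction and side of the threshold, 45 lost the call, 10 gained one and 0 reversed. Of 197 counts of called members, 9 moved by over 1.5 times. Between 4-week F4/80hi cells and naive microglia, 9 members became 3 with a replicate block, 2 of them shared. After centring each group, the r of same-numbered arrays was -0.0789, -0.103 and -0.0551 at 12 weeks and 0.282 and -0.00091 at 4 weeks. With 2 or 3 arrays in a group, such values cannot decide whether replicate numbers pair the samples. The block moved no other count by over 1.5 times. Between 12 and 4 weeks in F4/80hi cells, 0 members became 6 with no batch term. In F4/80low cells at 4 weeks, 2 became 1 with only the groups compared and 1 within batch 2. With 1 array left out, counts ranged from 0 to 1 between 12 and 4 weeks in F4/80hi cells (1, *Slc26a11*, without the second 4-week array), from 1 to 3 in F4/80low cells at 4 weeks (1 without naive array 4 or 5 or the first F4/80low array), from 1 to 3 in DTR microglia (1 without the first DTR array) and from 6 to 10 in F4/80hi cells at 4 weeks (6 without the second). They ranged from 10 to 14 for 12-week F4/80hi cells against naive microglia, 9 to 10 against F4/80low cells and 40 to 42 against monocytes. For naive microglia they were 34 to 38 against monocytes, 33 to 38 against RPM and 28 to 33 against intestinal macrophages, and 33 to 38 for RPM against intestinal macrophages. Where a group was left with 1 array, it was assumed to vary like the others. A fit within 1 batch was not run for 12 against 4 weeks in F4/80hi cells, which lie in different batches. The number of arrays, and the unknown technical repeats among naive microglia and monocytes, limit what can be told apart.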
